A study of Homo sapiens with 120 samples.

Results

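The libraries described here come from the mesoderm arm of a study of lncPRESS1, a long non-coding RNA gene of human pluripotent cells whose official symbol is LNCPRESS1. They are the 12 libraries titled DATG or WT on days 3, 4 and 5 of BMP4 treatment, chosen by those titles out of 120 libraries in the series, and DATG is written ΔATG here. ΔATG is H1 with lncPRESS1 that, from its name, lacks the start codon, and WT is the same established line of human embryonic stem cells without an edit. On each of the 3 days there are 2 ΔATG and 2 WT libraries, so that 6 ΔATG libraries stand against 6 WT libraries matched by day. All were seeded on Matrigel, given bone morphogenetic protein 4, which directs these cells to mesoderm, and sequenced as stranded libraries of polyadenylated RNA. The sources used here give neither the dose of BMP4 nor the number of clones behind ΔATG, and the edit and the clone cannot be told apart. Libraries a and b of a day are not stated to be separate cultures, and p-values then measure only the spread between such libraries, which may be technical. That spread was estimated over all 96 libraries of the differentiation arm unless another fit is named. Beside them stand ΔATG and WT at day 0, on days 1 and 2 of BMP4, and on days 3 to 5 of 2 further protocols, which lead to neuroectoderm by inhibition of SMAD signalling (SMADi) and to definitive endoderm with a kit (Endo). The knockout line of lncPRESS1 (KO), in 6 libraries on the same BMP4 days, is used for a direct comparison with ΔATG.

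The transcription factor p53 switches on genes that arrest the cell cycle, start apoptosis, repair DNA or restrain p53 itself. CDKN1A, which encodes the cyclin-dependent kinase inhibitor p21, is the best known of them, and in pluripotent cells p53 also acts when the cells leave the stem cell state. lncPRESS1 itself is known as a transcript that p53 represses and that binds the deacetylase SIRT6. BMP4 signals through SMAD proteins to genes such as ID3 and MSX1. Under it, stem cells pass through a state resembling the primitive streak, marked by TBXT and MIXL1, and then turn on lateral mesoderm factors such as HAND1 and GATA4, while amnion and trophoblast genes can rise in the same dishes. The comparison asks how ΔATG cells differ from WT cells late in this course, and the title of the series speaks of an RNA with more than 1 function.

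The ΔATG libraries held 48068648 to 59399442 estimated counts, and the WT libraries 48265797 to 71220396. Between 28009 and 28684 genes had a count above 0 in ΔATG libraries, against 28368 to 29131 in WT libraries. Levels are given in CPM, the count scaled to a common library size, and differences as the log2 fold change of ΔATG over WT with its SE, averaged over the 3 days unless a day is named. Calls of genes rest on edgeR's quasi-likelihood test with Benjamini-Hochberg adjustment and a threshold of 0.05, and every adjusted p below comes from it unless another tool is named. Of 25821 genes tested, 4922 were called (19.1%), 2284 of them higher in ΔATG (8.85%) and 2638 lower (10.2%). The median change of all genes was 0. Changes of at least 2-fold were mostly downward, with 143 called genes higher and 502 lower. The counts depend on the fit. On single days 5.6%, 5.12% and 11.1% of genes were called on days 3, 4 and 5. With a block for the letter of the library 6704 genes were called, and with a spread estimated from the 12 libraries alone 2332. In bulk RNA, fewer cells of a type and less RNA per cell cannot be told apart.

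Loss of a start codon need not change the level of its transcript, so lncPRESS1 RNA checks the KO label and not the ΔATG label. LNCPRESS1 (chr7:101299578-101301346, plus strand, GRCh38) had 11.1 and 12.7 CPM in ΔATG and 10.7 and 12.6 CPM in WT on day 3. On day 4 it had 12.6 and 14.9 CPM in ΔATG and 11.7 and 16.2 CPM in WT, and on day 5 12.5 and 10.5 CPM in ΔATG and 14.3 and 12.9 CPM in WT. The groups overlapped on days 3 and 4, and the averaged difference was -0.08 ± 0.13 (adjusted p = 0.774). KO cells had 3.23 to 4.92 CPM over the same days, below every ΔATG library, and ΔATG stood 1.61 ± 0.15 above KO on the log2 scale (adjusted p = 8.29e-13).

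Most p53 targets, CDKN1A among them, were lower in ΔATG. Of 32 genes in a list of well known targets, 24 fell in ΔATG, 1 rose and 7 were not called, with a median of -0.50. For 16 of the 32, both ΔATG libraries lay below both WT libraries on each of the 3 days, a pattern that 5.24% of all genes tested showed. On single days 12 targets were lower on day 3 (3.34% of all genes were called lower), 13 on day 4 (2.96%) and 20 on day 5 (6.86%). A block for the library letter gave 26 lower members, and a spread estimated from the 12 libraries alone gave 18. A fit of the 36 day 0 and BMP4 libraries, chosen after the data were seen, gave 21.

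**Figure D1:**
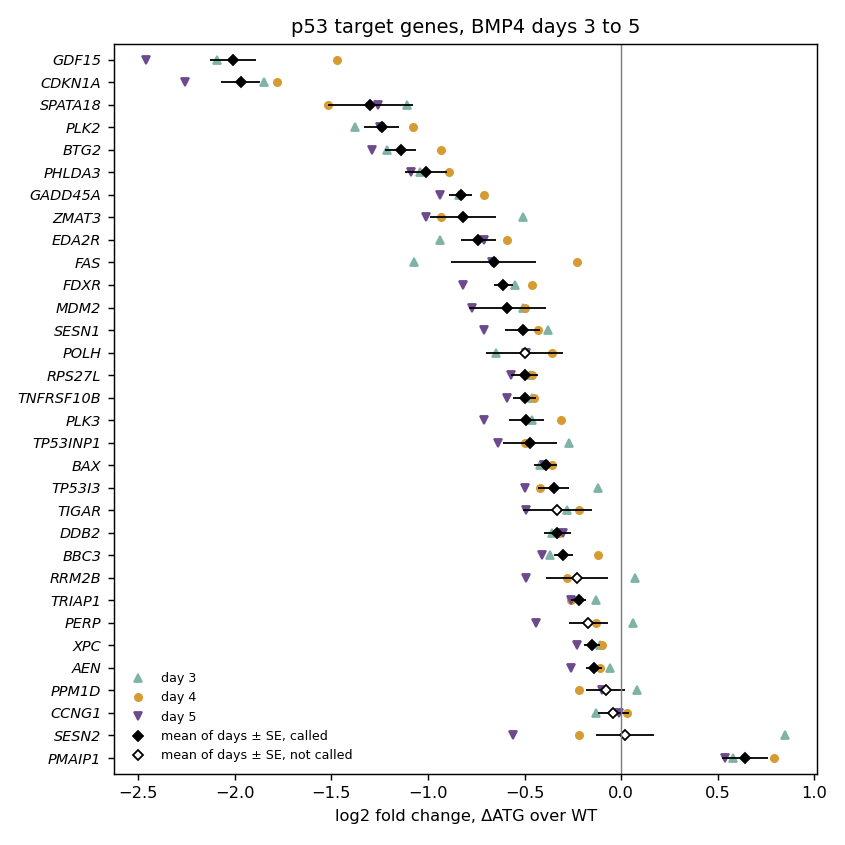
Change of 32 p53 target genes in ΔATG against WT cells under BMP4. The horizontal axis is the log2 fold change of ΔATG over WT, coloured symbols are single days, diamonds with bars are the mean of the 3 days ± SE, and filled diamonds passed an adjusted p of 0.05. GDF15 and CDKN1A lie near -2.0, most other targets between -1.3 and 0, and PMAIP1 stands alone on the right at 0.64.

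Of the 9 targets that arrest the cell cycle, 7 fell and 2 were not called. CDKN1A (chr6:36676460-36687339, plus strand) had 9.74 and 9.36 CPM in ΔATG against 32.1 and 36.9 CPM in WT on day 3. It had 21.2 and 20.8 CPM in ΔATG against 74.9 and 69.3 CPM in WT on day 4, and 45.9 and 38.1 CPM in ΔATG against 175 and 228 CPM in WT on day 5. The groups were apart on every day, and each group's level was higher on each later day. CDKN1A fell by 1.97 ± 0.10 on the log2 scale (adjusted p = 1.32e-22), with -1.85, -1.78 and -2.26 on days 3, 4 and 5. The test for a change of effect between days gave an adjusted p of 0.726. BTG2, an antiproliferative factor, had 13.6 and 12.4 CPM in ΔATG against 29.9 and 30.2 CPM in WT on day 3, and 28.9 and 27.2 CPM in ΔATG against 64.3 and 73.3 CPM in WT on day 5. It fell by 1.14 ± 0.08 (adjusted p = 1.55e-16) and the groups were also apart on day 4. PLK2, a polo-like kinase induced by stress, had 10.9 and 11 CPM in ΔATG against 31.8 and 25.3 CPM in WT on day 3, and 26.7 and 27.4 CPM in ΔATG against 58.4 and 70.7 CPM in WT on day 5. It fell by 1.24 ± 0.09 (adjusted p = 2.21e-16), and on day 4, too, both ΔATG libraries were below both WT libraries. GADD45A, a growth arrest gene, had 42.2 and 40.5 CPM in ΔATG against 71.8 and 87.0 CPM in WT on day 5 and changed by -0.83 ± 0.06. ZMAT3 changed by -0.82 ± 0.17, and SESN1 and PLK3 by -0.51 ± 0.09 and -0.49 ± 0.09. CCNG1, a cyclin G, had medians of 249 CPM in ΔATG and 251 CPM in WT (-0.04 ± 0.08), and SESN2 was likewise not called (0.02 ± 0.15).

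**Figure D2:**
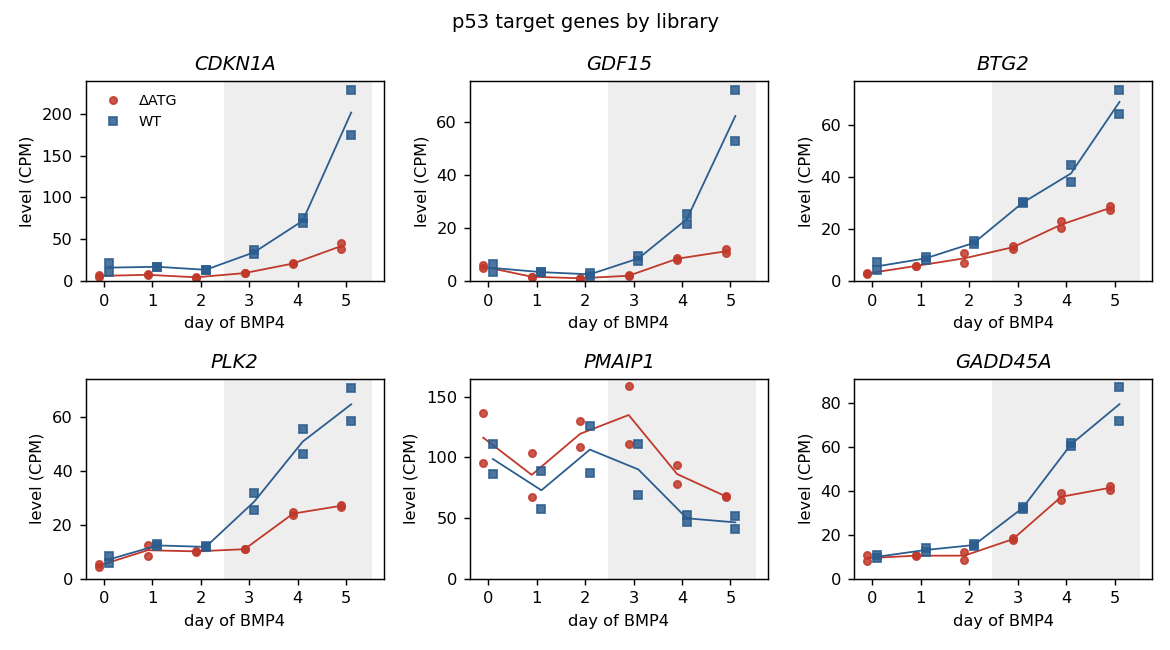
Level of 6 p53 target genes in each library of ΔATG (circles) and WT (squares) at day 0 and over 5 days of BMP4. The vertical axis is CPM, lines join the means of 2 libraries, and grey marks days 3 to 5. CDKN1A, GDF15, BTG2, PLK2 and GADD45A lie lower in ΔATG on days 3 to 5, and PMAIP1 is higher in ΔATG on days 4 and 5.

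Among 13 targets that act in apoptosis, 11 fell and 1 rose. BAX, a pore former of the mitochondrial outer membrane, spanned 85.5 to 125 CPM in ΔATG and 111 to 176 CPM in WT, and it fell by 0.39 ± 0.06 (adjusted p = 5.8e-07). TNFRSF10B, a receptor for the death ligand TRAIL, spanned 57.5 to 88.6 CPM in ΔATG and 79.7 to 124 CPM in WT and fell by 0.50 ± 0.06 (adjusted p = 1e-09). On every day both genes were lower in both ΔATG libraries than in both WT libraries. EDA2R, another receptor of the TNF family, changed by -0.74 ± 0.09, PHLDA3, an inhibitor of AKT, by -1.01 ± 0.11, and BBC3, which encodes PUMA, by -0.30 ± 0.05. PMAIP1, which encodes the BH3-only protein NOXA, went the other way. It had 159 and 111 CPM in ΔATG against 111 and 69.2 CPM in WT on day 3, 94.2 and 78.4 CPM in ΔATG against 52.6 and 47.1 CPM in WT on day 4, and 68.4 and 67.6 CPM in ΔATG against 52 and 41 CPM in WT on day 5. The groups touched on day 3 and were apart on days 4 and 5, and PMAIP1 rose by 0.64 ± 0.12 (adjusted p = 7.82e-05). PERP was not called (-0.17 ± 0.10, adjusted p = 0.238), though it was with the letter block (adjusted p = 0.000282). FAS, a death receptor with at most 1.6 CPM in ΔATG and 2.6 CPM in WT, was called at -0.66 ± 0.22, and the call ended without library b of day 3, a of day 4 or a of day 5 of ΔATG, or without library a of day 3, a of day 4 or b of day 5 of WT (adjusted p 0.0631 to 0.142).

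The remaining targets repair DNA, feed back on p53, or act in metabolism. GDF15, a secreted stress cytokine, had 2.26 and 1.76 CPM in ΔATG against 7.74 and 9.28 CPM in WT on day 3. On day 4 it had 8.02 and 8.8 CPM in ΔATG against 21.3 and 25.3 CPM in WT, and on day 5 12 and 10.4 CPM in ΔATG against 52.5 and 71.7 CPM in WT. With no overlap on any day it fell by 2.01 ± 0.12 (adjusted p = 5.49e-20), the deepest change in the list. FDXR, a mitochondrial reductase, changed by -0.61 ± 0.05, and SPATA18, a gene of mitochondrial quality control, by -1.30 ± 0.22. Of 4 DNA repair and nucleotide genes, DDB2 (-0.33 ± 0.07) and XPC (-0.15 ± 0.04) fell, while POLH (-0.50 ± 0.20, adjusted p = 0.0706) and RRM2B were not called. RRM2B was called with the letter block (adjusted p = 0.00166). MDM2, the ligase that marks p53 for destruction, varied widely between libraries. It had 82.8 and 42.5 CPM in ΔATG against 124 and 54.1 CPM in WT on day 3, and 48.2 and 49.4 CPM in ΔATG against 106 and 59.9 CPM in WT on day 5. Libraries a and b of WT lay further apart there than the groups. The averaged change of -0.59 ± 0.20 passed at an adjusted p of 0.0248, and without WT library a of day 3 it was -0.36 with an adjusted p of 0.232. The call also ended without WT library a of day 4 or day 5, or without ΔATG library b of day 3, b of day 4 or a of day 5.

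The proximal promoters of the targets were read for the p53 consensus half-site, a palindromic motif searched on both strands in the 250 bases before the start of transcription (RefSeq, GRCh38.p14). Such a match was found in 1957 of 35116 promoters of all genes (5.57%), in 6 of 39 promoters of listed targets (15.4%, 27 genes found), and in 6 of 31 promoters of targets that fell (19.4%). The genes with a match were PLK2, SESN1, FAS, RPS27L, AEN and FDXR. A match is a description of letters and not a bound site, and the known p53 elements of CDKN1A lie upstream of this window. The 3 promoters shown are that of CDKN1A with the deepest fall among the arrest genes and those of PLK2 and RPS27L with a match each, printed from 5′ to 3′ on the strand of the gene, with the matching bases in capitals.
CDKN1A, chr6:36678464-36678713, plus strand, no match: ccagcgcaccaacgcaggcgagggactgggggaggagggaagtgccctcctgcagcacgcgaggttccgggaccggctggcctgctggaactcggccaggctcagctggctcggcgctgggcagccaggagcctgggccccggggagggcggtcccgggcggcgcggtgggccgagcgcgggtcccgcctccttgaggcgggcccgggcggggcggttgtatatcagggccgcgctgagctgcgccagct
PLK2, chr5:58460087-58460336, minus strand, match 132 bases before the start: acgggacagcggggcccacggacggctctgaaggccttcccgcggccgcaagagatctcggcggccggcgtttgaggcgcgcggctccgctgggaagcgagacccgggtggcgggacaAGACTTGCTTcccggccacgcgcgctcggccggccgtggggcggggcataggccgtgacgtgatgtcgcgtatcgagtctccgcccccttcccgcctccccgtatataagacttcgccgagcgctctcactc
RPS27L, chr15:63157478-63157727, minus strand, match 59 bases before the start: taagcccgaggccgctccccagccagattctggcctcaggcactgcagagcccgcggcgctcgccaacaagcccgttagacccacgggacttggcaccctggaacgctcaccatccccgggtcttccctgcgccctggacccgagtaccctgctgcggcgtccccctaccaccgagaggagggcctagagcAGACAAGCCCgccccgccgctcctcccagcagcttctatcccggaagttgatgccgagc
RPS27L, a ribosomal protein paralogue that p53 induces, had 32.5 to 55.1 CPM in ΔATG and 47.6 to 91.7 CPM in WT and fell by 0.50 ± 0.07 (adjusted p = 1.75e-07). CDKN1A, without a match in this window, and PLK2, with a match, both fell by more than 1 on the log2 scale.

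Most lateral and cardiac mesoderm genes were lower in ΔATG. Of 23 genes, 21 fell and BMP7 and TBX5 were not called, with a median of -0.92. In 15 of them both ΔATG libraries lay below both WT libraries on every day, against 5.24% of all genes. The number called lower was 11 on day 3 (3.34% of all genes), 18 on day 4 (2.96%) and 21 on day 5 (6.86%). On day 5, 1 was called higher (4.25% of all genes). HAND1, a basic helix-loop-helix factor of lateral and extraembryonic mesoderm, was present at high level in all 12 libraries and close to 0 at day 0. HAND1 (chr5:154474972-154478264, minus strand) had 60.8 and 64.0 CPM in ΔATG against 129 and 102 CPM in WT on day 3. It had 138 and 128 CPM in ΔATG against 259 and 179 CPM in WT on day 4, and 148 and 122 CPM in ΔATG against 208 and 240 CPM in WT on day 5. The groups were apart on each day, and HAND1 fell by 0.78 ± 0.09 (adjusted p = 3.16e-10).

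**Figure D3:**
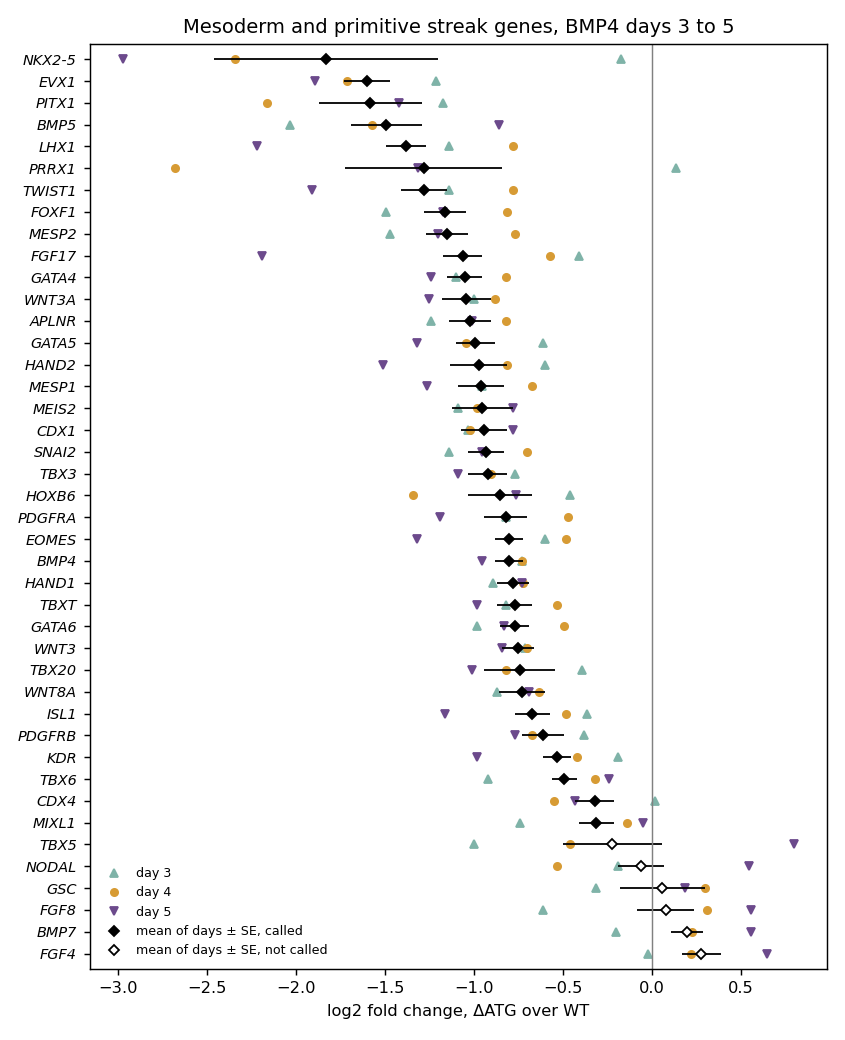
Change of 23 lateral and cardiac mesoderm genes and 19 primitive streak genes in ΔATG against WT cells under BMP4. The horizontal axis is the log2 fold change of ΔATG over WT, coloured symbols are single days, diamonds with bars are the mean of the 3 days ± SE, and filled diamonds passed an adjusted p of 0.05. No filled diamond lies right of 0, and the 6 open ones lie between -0.22 and 0.28.

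GATA4, a zinc finger factor of heart and lateral mesoderm, had 11.5 and 12.8 CPM in ΔATG against 28.3 and 23.7 CPM in WT on day 3, and 20.6 and 17.6 CPM in ΔATG against 41.9 and 48.5 CPM in WT on day 5. It fell by 1.05 ± 0.10 (adjusted p = 3.26e-13), and its relatives GATA5 and GATA6 changed by -0.99 ± 0.11 and -0.77 ± 0.08. The 3 GATA factors each lay lower in ΔATG on every day. FOXF1, a forkhead factor of splanchnic mesoderm, changed by -1.16 ± 0.12, TWIST1 by -1.28 ± 0.13, TBX3 by -0.92 ± 0.11 and SNAI2 by -0.93 ± 0.10. The cardiac factor ISL1 changed by -0.67 ± 0.10. NKX2-5 and PRRX1 were called at -1.83 ± 0.63 and -1.28 ± 0.44, but both calls ended without ΔATG library b of day 3, WT library a of day 3 or WT library a of day 4. That of NKX2-5 also ended without WT library b of day 3, and that of PRRX1 without ΔATG library a of day 4. TBX20 was called at -0.74 ± 0.20 and not without WT library a of day 4 (-0.57, adjusted p = 0.0529). Among the signals and receptors of this list, BMP4 RNA itself had a median of 142 CPM in ΔATG and 252 CPM in WT (-0.80 ± 0.08), and BMP5 changed by -1.49 ± 0.20. PDGFRA, a receptor of nascent and paraxial mesoderm, had 26.8 and 23.8 CPM in ΔATG against 53.1 and 36.1 CPM in WT on day 3, and 30.3 and 23.8 CPM in ΔATG against 62.8 and 60.5 CPM in WT on day 5. It fell by 0.82 ± 0.12, and KDR, a VEGF receptor, by 0.53 ± 0.08.

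Of 19 primitive streak genes 15 fell in ΔATG and 4 were not called, with a median of -0.77. On day 5 alone 11 of the 19 were called lower (6.86% of all genes) and 1 higher (4.25%). TBXT, the streak factor brachyury, had 61.7 and 59.7 CPM in ΔATG against 119 and 95.6 CPM in WT on day 3. It had 26.9 and 29.3 CPM in ΔATG against 44.7 and 36.4 CPM in WT on day 4, and 5.26 and 4.76 CPM in ΔATG against 9.18 and 10.7 CPM in WT on day 5. Later days had lower levels in both lines, the groups did not overlap, and TBXT was lower by -0.77 ± 0.10 (adjusted p = 9.03e-09). EVX1 changed by -1.60 ± 0.13, the bHLH factors MESP1 and MESP2 by -0.96 ± 0.13 and -1.15 ± 0.12, and the ligands WNT3 and WNT3A by -0.75 ± 0.09 and -1.04 ± 0.14. APLNR, a receptor of streak-derived mesoderm, had medians of 197 CPM in ΔATG and 400 CPM in WT (-1.02 ± 0.12). MIXL1 differed from these. It had 70.6 and 71.4 CPM in ΔATG against 125 and 111 CPM in WT on day 3, but 22.4 and 12.8 CPM in ΔATG against 19.5 and 17.1 CPM in WT on day 5, where the groups overlapped. Its averaged change of -0.31 ± 0.10 passed at an adjusted p of 0.03 and was -0.19 without ΔATG library b of day 5 (adjusted p = 0.229). It was also lost without ΔATG library a or b of day 3 or b of day 4, and without WT library a of any day. GSC, FGF8, FGF4 and NODAL were not called. FGF4 stood at 0.28 ± 0.11 (adjusted p = 0.0748, and 0.0109 with the letter block).

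For 3 streak genes the effect differed between days, as it did for 134 genes in all (0.519%). LHX1, a LIM homeobox factor, had 26.1 and 26.1 CPM in ΔATG against 53 and 61.7 CPM in WT on day 3, and 11.4 and 14.0 CPM in ΔATG against 45.0 and 73.8 CPM in WT on day 5 (adjusted p for a difference between days 0.00234). EOMES, a T-box factor, had log2 changes of -0.60, -0.48 and -1.32 on days 3, 4 and 5 (adjusted p = 0.0206). FGF17, a ligand of the FGF8 family, had 15.0 and 18.1 CPM in ΔATG against 20.7 and 23.2 CPM in WT on day 3, and 3.13 and 2.23 CPM in ΔATG against 9.34 and 15.8 CPM in WT on day 5 (adjusted p = 5.23e-05). In all 3 the difference was deepest on day 5. None of these 3 passed when the spread came from the 36 day 0 and BMP4 libraries (adjusted p 0.48 for LHX1, 0.738 for EOMES and 0.162 for FGF17), a fit chosen after the data were seen. The number of genes with a day-dependent effect was 53 without ΔATG library b of day 5, 57 without WT library b of day 5, 465 with the letter block, and 0 with a spread from the 12 libraries alone.

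Genes that BMP signalling switches on were lower as well. Of 15, 13 fell and ID1 and ATOH8 were not called, with a median of -0.69. MSX1, a homeobox target, had 7.34 and 9.26 CPM in ΔATG against 22.8 and 19.6 CPM in WT on day 3. It had 45.9 and 50.2 CPM in ΔATG against 112 and 93.3 CPM in WT on day 4, and 71 and 60.8 CPM in ΔATG against 133 and 169 CPM in WT on day 5. MSX1 was higher on each later day in both lines, the groups were apart, and it fell by 1.21 ± 0.11 (adjusted p = 1.13e-12). ID3, an inhibitor of bHLH factors, had 82.7 and 99.9 CPM in ΔATG against 139 and 152 CPM in WT on day 3, and 232 and 190 CPM in ΔATG against 375 and 436 CPM in WT on day 5. It fell by 0.82 ± 0.10 (adjusted p = 5.25e-09). The inhibitory SMAD6, with 63.7 and 65.2 CPM in ΔATG against 116 and 149 CPM in WT on day 5, changed by -0.81 ± 0.06, SMAD7 by -0.46 ± 0.10, and the antagonists NOG and BAMBI by -0.69 ± 0.08 and -0.58 ± 0.08. ID1 had medians of 338 CPM in ΔATG and 359 CPM in WT and an averaged difference of -0.18 ± 0.08 (adjusted p = 0.105, and 0.0404 with the letter block).

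**Figure D4:**
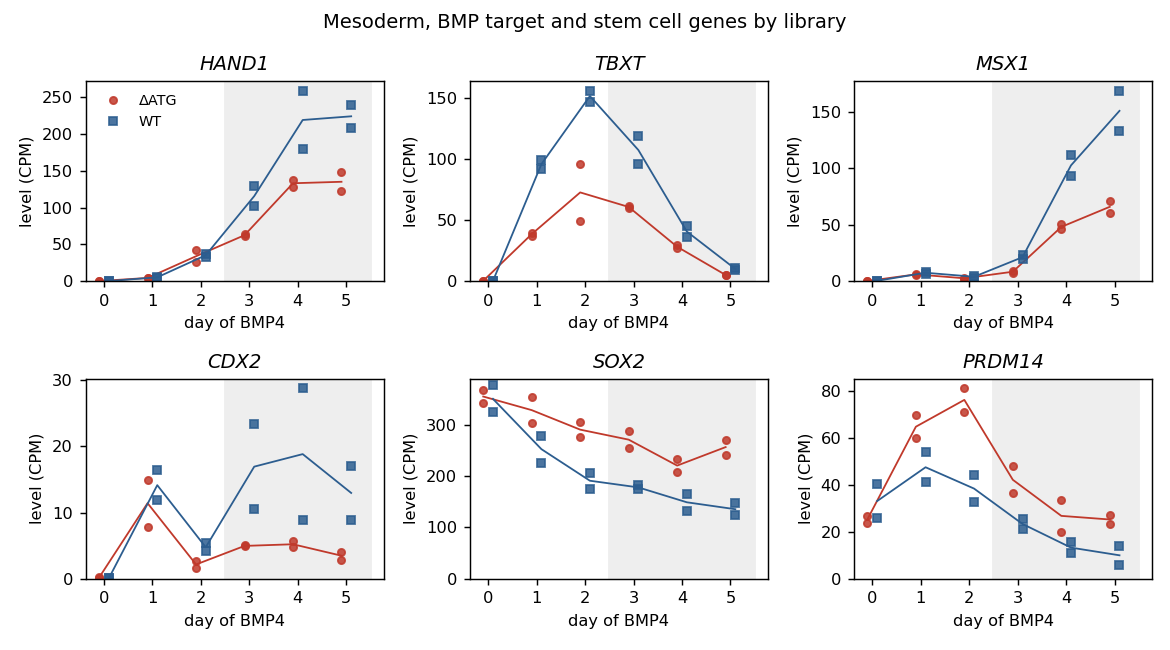
Level of 6 mesoderm, BMP target, amnion and stem cell genes in each library of ΔATG (circles) and WT (squares) at day 0 and over 5 days of BMP4. The vertical axis is CPM, lines join the means of 2 libraries, and grey marks days 3 to 5. HAND1 and MSX1 lie lower in ΔATG from day 3 and TBXT already on day 1, the WT libraries of CDX2 are spread widely, and SOX2 and PRDM14 lie higher in ΔATG on days 3 to 5.

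Amnion and trophoblast genes were lower in part. Of 24 listed, ELF5, CGA and ERVFRD-1 had too few counts to test, with 12, 10 and 0 counts over all ΔATG libraries and 21, 5 and 4 over all WT libraries. Of the 21 tested, 13 fell and 8 were not called, with a median of -0.44. A block for the library letter gave 14 lower members, and a spread estimated from the 12 libraries alone gave 10. The calls of DLX3, DLX5 and ERVW-1 ended without some of the single libraries. CDX2, a factor of trophoblast and of posterior mesoderm, had 4.89 and 5.05 CPM in ΔATG against 23.4 and 10.5 CPM in WT on day 3. It had 5.64 and 4.80 CPM in ΔATG against 28.8 and 8.89 CPM in WT on day 4, and 4.08 and 2.90 CPM in ΔATG against 8.85 and 17.1 CPM in WT on day 5. The ΔATG libraries were alike and all lower, the WT libraries of a day differed widely, and CDX2 fell by 1.83 ± 0.20 (adjusted p = 9.09e-10). GATA3 had 33.0 and 23.7 CPM in ΔATG against 68.2 and 65.2 CPM in WT on day 5 and changed by -0.92 ± 0.09, and GATA2 by -1.20 ± 0.13. The keratins KRT8, KRT18 and KRT19 changed by -0.56 ± 0.04, -0.39 ± 0.05 and -0.64 ± 0.06. The amnion markers GABRP (-0.13 ± 0.12) and VTCN1 (-0.22 ± 0.11) were not called, and GCM1, a defining trophoblast factor, stood at no more than 0.134 CPM in ΔATG and 0.162 CPM in WT.

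Stem cell genes went the other way. Of 23 pluripotency genes, 17 rose and 6 were not called, with a median of 0.36, and in 12 both ΔATG libraries lay above both WT libraries on every day, against 4.47% of all genes. On single days 11, 10 and 8 of the 23 were called higher on days 3, 4 and 5. On those days 5.6%, 5.12% and 11.1% of all genes were called either way, and on day 5 4.25% were called higher. On day 5, 1 of the 23 was called lower (6.86% of all genes). SOX2, a core pluripotency factor that is also kept on in neural cells, had 288 and 254 CPM in ΔATG against 174 and 182 CPM in WT on day 3. It had 233 and 208 CPM in ΔATG against 133 and 165 CPM in WT on day 4, and 242 and 271 CPM in ΔATG against 147 and 124 CPM in WT on day 5. No library of the groups overlapped, and SOX2 rose by 0.70 ± 0.06 (adjusted p = 6.11e-14). PRDM14 had 48.1 and 36.4 CPM in ΔATG against 25.6 and 21.2 CPM in WT on day 3, and 27.3 and 23.3 CPM in ΔATG against 14.0 and 6.04 CPM in WT on day 5. It rose by 1.05 ± 0.13 (adjusted p = 1.08e-08). DNMT3B, the de novo DNA methyltransferase of stem cells, had 1440 and 1340 CPM in ΔATG against 978 and 1030 CPM in WT on day 3, and 1100 and 1140 CPM in ΔATG against 698 and 623 CPM in WT on day 5. It changed by 0.58 ± 0.04, the RNA-binding LIN28A by 0.50 ± 0.05, DPPA4 by 0.49 ± 0.07 and the long non-coding ESRG by 0.58 ± 0.07. The other core factors moved little. POU5F1 was called at 0.17 ± 0.05 (adjusted p = 0.00752) and not without WT library a of day 4 (0.10, adjusted p = 0.163) nor without ΔATG library b of day 4 or WT library a of day 3, and NANOG, with medians of 68.5 CPM in ΔATG and 68.8 CPM in WT, stood at 0.05 ± 0.15. OTX2, a factor of the epiblast and the anterior neural plate, had 73.4 and 79.6 CPM in ΔATG against 52.3 and 62.9 CPM in WT on day 3, and 118 and 143 CPM in ΔATG against 51.3 and 46.8 CPM in WT on day 5. It rose by 0.96 ± 0.07, more on days 4 and 5 than on day 3 (adjusted p for a difference between days 0.000275, and 0.345 in the fit of 36 libraries).

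Markers of the cell types such cultures could hold were summed in each library. The 5 mesoderm markers HAND1, FOXF1, GATA4, TBX20 and PDGFRA summed to 102 to 213 CPM in ΔATG and 167 to 384 CPM in WT. The 4 stem cell markers POU5F1, NANOG, SOX2 and PRDM14 summed to 1690 to 2160 CPM in ΔATG and 1430 to 1920 CPM in WT. Each of these sums mostly follows a single gene. Over the ΔATG libraries HAND1 held 38006 counts and PDGFRA, the next mesoderm marker, 11255. POU5F1 held 544026 counts there and SOX2, the next stem cell marker, 86326. The endoderm pair SOX17 and FOXA2 summed to 9.77 to 21.6 CPM in ΔATG and 27.6 to 44.7 CPM in WT. SOX17 alone fell by 1.44 ± 0.12, with medians of 9.89 CPM in ΔATG and 28.0 CPM in WT. The 4 amnion markers summed to 43.2 to 54.3 CPM in ΔATG and 44.0 to 74.5 CPM in WT. The amnion sums overlapped on days 3 and 4. On day 5 they were 48.5 and 43.2 CPM in ΔATG against 60.2 and 58.4 CPM in WT, without overlap. The neuroectoderm markers PAX6, SOX1 and LHX2 summed to 0.223 and 0.202 CPM in ΔATG against 0.632 and 0.497 CPM in WT on day 4, and to 2.47 and 2.88 CPM in ΔATG against 1.22 and 1.37 CPM in WT on day 5. The sums of these 3 markers were thus lower in ΔATG on day 4 and higher on day 5, and on day 3 the groups overlapped. On days 3 and 4 these sums were all below 1 CPM, a very low level. The wider list of 23 neuroectoderm genes went the other way on day 4, with 9 called higher, 0 lower and a median of 0.54 (5.12% of all genes were called either way). The pair of cardiomyocyte markers summed to 3.18 to 7.55 CPM in ΔATG and 2.59 to 9.41 CPM in WT, with overlap on each day. Trophoblast markers summed to at most 0.522 CPM in ΔATG and 0.794 CPM in WT, and endothelial and blood markers each to less than 1 CPM. What part the makeup of the cultures had in the p53 target and signalling results was not tested.

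**Figure D5:**
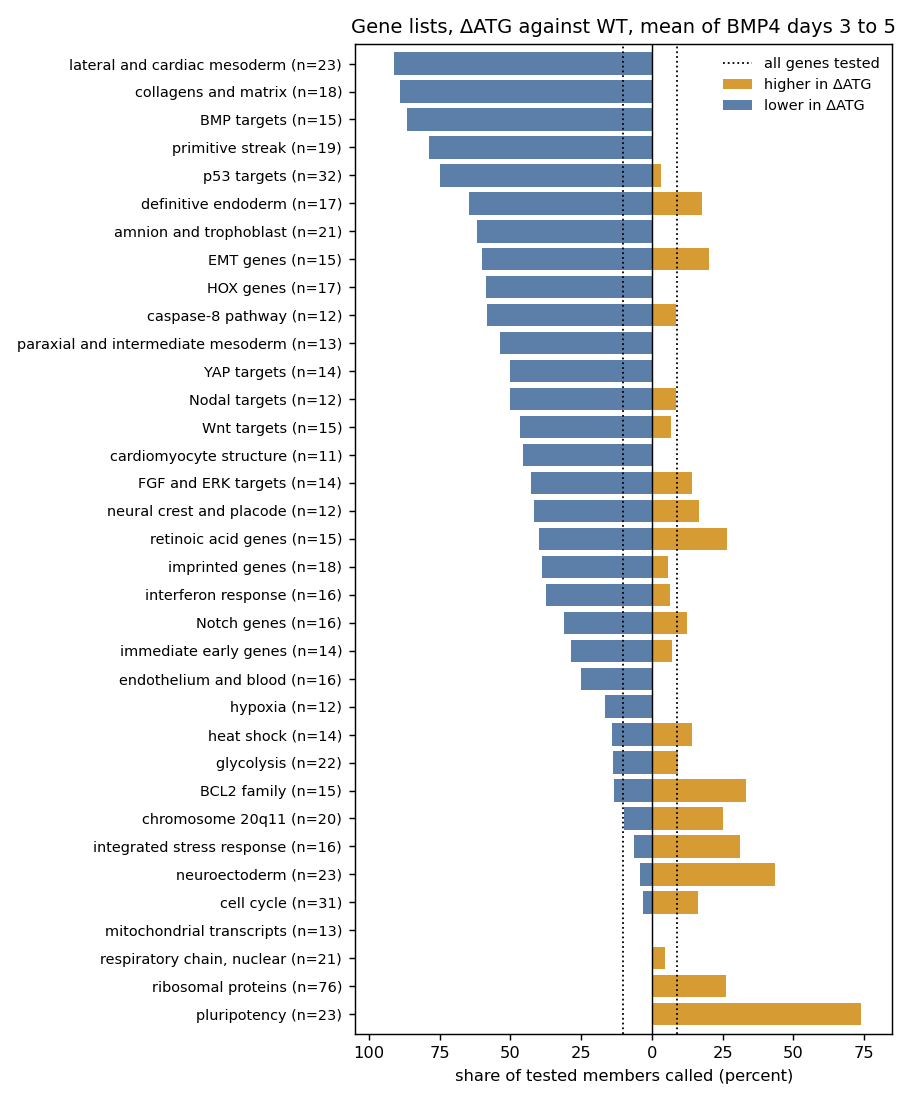
Share of the tested members of each gene list drawn that were called higher (orange, right) or lower (blue, left) in ΔATG than in WT, averaged over BMP4 days 3 to 5. The lists of sirtuins, of p53 and its regulators and of the lncPRESS1 locus are left out. The horizontal axis is percent of tested members, n is the number tested, and dotted lines mark the shares over all 25821 genes, 8.85% higher and 10.2% lower. Mesoderm, matrix, BMP target, streak and p53 target lists extend far to the left, and the pluripotency list far to the right.

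Other lists show how far the same days differed, beside 8.85% of all genes called higher and 10.2% called lower. Of 18 collagen and matrix genes, 16 fell, and FBN2, a fibrillin, had medians of 164 CPM in ΔATG and 419 CPM in WT (-1.23 ± 0.08). Of 28 HOX genes 17 could be tested, and 10 of these fell. HOXB3 had medians of 4.67 CPM in ΔATG and 11.4 CPM in WT (-1.36 ± 0.19), and 4 of the list were called by DESeq2. Of 17 definitive endoderm genes 11 fell and 3 rose, and of 13 paraxial and intermediate mesoderm genes 7 fell. Neuroectoderm genes leaned upward, with 10 of 23 higher and 1 lower. Of 15 Wnt targets 7 fell, among them LEF1 with medians of 28.7 CPM in ΔATG and 48.7 CPM in WT (-1.04 ± 0.12). DUSP6, a phosphatase that FGF signalling induces, fell by 1.25 ± 0.17, and FOSL1, an AP-1 component, by 1.34 ± 0.09. CYP26A1, an enzyme that breaks down retinoic acid, rose by 0.73 ± 0.09. Of 31 cell cycle genes 5 were higher, 1 was lower and 25 were not called. Of 76 ribosomal protein genes 20 were higher (median 0.12), a number that lay between 0 and 59 over the alternatives in processing.

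Of 15 genes of the BCL2 family 5 were higher in ΔATG and 2 lower, and of 12 caspase-8 pathway genes 1 was higher and 7 were lower. Over all genes tested 8.85% were called higher and 10.2% lower. BIK, a BH3-only gene, had medians of 5.81 CPM in ΔATG and 2.59 CPM in WT and rose by 1.04 ± 0.11, and CASP9 by 0.44 ± 0.07. CFLAR, which encodes the caspase-8 inhibitor FLIP, had 10.8 and 9 CPM in ΔATG against 7.08 and 6.78 CPM in WT on day 3, but 15.5 and 12.4 CPM in ΔATG against 42.2 and 52.4 CPM in WT on day 5. Its changes of 0.51, -0.37 and -1.75 on days 3, 4 and 5 differed between days (adjusted p = 2.82e-07). Of 7 sirtuin genes 2 were called, both higher (8.85% of all genes). SIRT1, a deacetylase that acts on p53 among other proteins, had medians of 86.3 CPM in ΔATG and 64.7 CPM in WT (0.54 ± 0.11, adjusted p = 0.000211).

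Some of the steepest differences were present at day 0 and others were not. Among the 10 highest rises were NPTX1, a neuronal pentraxin, and 3 genes of the anterior neural plate or its neighbourhood, FEZF1, LHX5 and the antisense LHX5-AS1, whose reads cannot be told apart from those of its neighbour if strand was not used in counting. NPTX1 had 57.3 and 44.5 CPM in ΔATG against 11.8 and 11.8 CPM in WT on day 3, and 3.71 and 7.01 CPM in ΔATG against 0.823 and 0.665 CPM in WT on day 5. It changed by 2.49 ± 0.17. At day 0 it had 570 and 604 CPM in ΔATG against 609 and 451 CPM in WT, where it was not called. FEZF1 had 2.75 and 3.02 CPM in ΔATG against 0.547 and 0.546 CPM in WT on day 3, and 47.1 and 61.0 CPM in ΔATG against 16.5 and 16.1 CPM in WT on day 5 (1.87 ± 0.14). NPTX1 was lower and FEZF1 higher on later days in both lines.

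Among the 10 deepest falls, CEBPZOS and H19 stood apart from the rest. CEBPZOS, an antisense neighbour of CEBPZ, had 0.182 to 0.960 CPM in ΔATG and 19.1 to 24.5 CPM in WT (-5.48 ± 0.13), and at day 0 already 1.91 and 2.41 CPM in ΔATG against 59.2 and 52.2 CPM in WT. H19, an imprinted long non-coding RNA, had 3.47 and 3.97 CPM in ΔATG against 110 and 71.4 CPM in WT on day 3, and 35.4 and 32.3 CPM in ΔATG against 724 and 803 CPM in WT on day 5 (-4.59 ± 0.12). Its imprinted neighbour IGF2, looked at after the values were seen, had a median of 95.8 CPM in each line (0.03 ± 0.14, adjusted p = 0.968). CHCHD2, which encodes a mitochondrial protein, was also chosen after its values were seen. It had 2 counts over all 6 ΔATG libraries and 19696 over the 6 WT libraries, which spanned 44.7 to 67.6 CPM. At day 0 it had 0 CPM in both ΔATG libraries against 65.0 and 68.1 CPM in WT, while KO libraries of days 3 to 5 had 33.9 to 43.9 CPM. For these genes, too, the edit and the clone cannot be told apart.

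Part of the p53 target and streak differences was present before day 3, while few lateral mesoderm genes were called then. CDKN1A was lower at day 0, with 5.11 and 7.17 CPM in ΔATG against 21.5 and 10.7 CPM in WT (-1.40 ± 0.20, adjusted p = 1.39e-06), and on days 1 and 2 (-1.38 ± 0.14). Its effect on days 3 to 5 minus that on days 1 and 2 was -0.59 ± 0.17 (adjusted p = 0.0665, and 0.0421 with DESeq2), and minus that at day 0 -0.56 ± 0.22 (adjusted p = 0.114). Of the 32 targets 11 were lower on days 1 and 2, where 2.99% of all genes were called and 1.89% were lower, and 11 at day 0, where 5.5% were called and 3.2% lower. Between the days 3 to 5 and the earlier times the effect differed for 1.82% of genes (days 1 and 2) and 7.4% (day 0). GDF15 differed at day 0 by 0.16 and was not called, so that its effect on days 3 to 5 was deeper by -2.16 ± 0.25 (adjusted p = 3.76e-08). PLK2 was deeper on days 3 to 5 than on days 1 and 2 by -1.02 (adjusted p = 1.65e-05). Of the 32 targets, 2 had a deeper effect on days 3 to 5 than on days 1 and 2, where 1.13% of all genes did, and 4 than at day 0, where 3.02% did. HAND1 was not called on days 1 and 2, with 41.8 and 25.8 CPM in ΔATG against 33.0 and 37.4 CPM in WT on day 2. Its later effect was deeper by -0.62 ± 0.17 (adjusted p = 0.0354), a call that the letter block (0.0531), limma voom (0.146), DESeq2 (0.0798) and the fit of 36 libraries (0.287) did not make. Of 23 mesoderm genes 3 were lower on days 1 and 2, and on days 3 to 5 the effect was deeper than on days 1 and 2 for 8 and higher for BMP7. Relative to day 0 it was deeper for 1 of the 23. At day 0 itself 0 of the 23 were called and their changes spanned -2.9 to 0.73, so the comparison with day 0 says little for these genes. Of 15 BMP targets the effect was deeper than on days 1 and 2 for 9 and than at day 0 for 4, SMAD6 being among the 9 (difference -0.74, adjusted p = 1.26e-06). Of 19 streak genes 15 were lower on days 1 and 2 already, and 4 had a higher effect later (0.689% of all genes), MIXL1 among them (difference 1.16, adjusted p = 6.7e-06). Relative to day 0 the effect on 2 streak genes was deeper. The same limit holds there, with 0 of 19 streak genes called at day 0 and changes from -4.31 to 1.24. Of 23 stem cell genes 10 had a higher effect on days 3 to 5 than at day 0, where 4.37% of all genes were. SOX2 was among those 10 (difference 0.68, adjusted p = 8.88e-05). On days 1 and 2 already 7 of the 23 were higher and 1 lower, where 2.99% of all genes were called either way. Relative to those days 3 of the 23 had a higher effect on days 3 to 5.

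On the same days of the other protocols, ΔATG and WT cells differed in other ways. In SMADi 47.4% of all genes were called and in Endo 31.7%, against 19.1% in BMP4. Of 23 stem cell genes, 3 were higher and 16 lower in SMADi, with a median of -1.03 (22.1% and 25.3% of all genes). In Endo 8 of the 23 were higher and 4 lower (15.7% and 16.1%). What part such differences had in the contrasts between protocols below was not tested. CDKN1A was lower by -0.55 ± 0.14 in SMADi and -0.72 ± 0.23 in Endo. The effect in BMP4 was deeper than in SMADi by -1.41 ± 0.17 (adjusted p = 7.55e-10) and than in Endo by -1.24 ± 0.26 (adjusted p = 0.000177). Of the 32 p53 targets, 11 were higher and 11 lower in SMADi (22.1% and 25.3% of all genes), and 1 was higher and 12 were lower in Endo (15.7% and 16.1%). The effect in BMP4 lay below that in SMADi for 22 of them (16.8% of all genes) and below that in Endo for 15 (11.6%). HAND1 was at a change of -3.47 ± 0.48 in Endo, so that its effect there was deeper than in BMP4 by 2.69 ± 0.50 (adjusted p = 2.06e-05).

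The direct comparison of the edited lines under BMP4 gave 3290 called genes, 2037 higher in ΔATG than in KO (7.89%) and 1253 lower (4.85%). CDKN1A had 9.36 to 45.9 CPM in ΔATG and 26.6 to 59.0 CPM in KO, with an overlap on day 5, and was lower in ΔATG by -0.92 ± 0.10 (adjusted p = 3.76e-10). GDF15 was lower by -0.77 ± 0.12 (adjusted p = 4.54e-06), and PLK2 was not called (-0.04 ± 0.09). Of the 32 p53 targets 15 were lower in ΔATG than in KO and 2 higher. The mesoderm genes lay the other way. HAND1 had 60.8 and 64.0 CPM in ΔATG against 31.5 and 28.0 CPM in KO on day 3, and 148 and 122 CPM in ΔATG against 54.9 and 80.2 CPM in KO on day 5. It was higher in ΔATG by 1.02 ± 0.09 (adjusted p = 2.03e-13), as were 18 of 23 lateral mesoderm genes, 13 of 19 streak genes and 11 of 15 BMP targets. SOX2 was lower in ΔATG than in KO by -0.37 ± 0.06 (adjusted p = 4.19e-06), and PRDM14 had 19.9 to 48.1 CPM in ΔATG and 18.2 to 38.3 CPM in KO. With the letter block 6012 genes were called between the lines, and with a spread from the libraries compared alone 817. The comparisons of each line with WT share the WT libraries, and against WT itself KO had 14 of 32 p53 targets, 21 of 23 mesoderm genes and 15 of 15 BMP targets lower, where 16.9% of all genes were lower.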

How the data were processed

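Polyadenylated RNA was measured in 120 libraries, of which the 12 libraries of ΔATG and WT on days 3 to 5 of BMP4 are described. The authors deposited expected counts, which are not whole, in 120 columns over 62703 genes. The genome build is GRCh38, per the submitters' processing notes. Which aligner, quantifier, annotation and strand setting they used was not given in the sources used here. Columns were matched to libraries by their descriptions.

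After rounding, counts were analysed with edgeR 4.0.16 in R 4.3.3, with DESeq2 1.42.0 and limma 3.58.1 as alternatives. All 96 libraries of the differentiation arm were fitted together, 1 mean for each of 48 groups, which left 48 residual degrees of freedom. Genes passed filterByExpr (25821 genes), libraries were scaled by TMM (factors 0.8575 to 1.114), and contrasts were tested two-sided with the edgeR quasi-likelihood F test, adjusted by Benjamini-Hochberg over all genes of a comparison, with a threshold of 0.05. The SE is the size of a log2 change divided by the square root of F. Gene positions are from GENCODE 29, which held 58279 of 62703 identifiers, and promoter sequences from RefSeq, GRCh38.p14. The pipeline was tested on simulated data.

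The libraries and gene lists were chosen with earlier results of these data known. Genes are named by this rule: among called genes of 1 sign on the 3 days whose log2 CPM averaged 1 or more, the 10 that rose most and the 10 that fell most, every member of the 8 main lists, and from each other list the 2 called members with the most positive and the 2 with the most negative change. Results for 1 gene of the main lists are not reported here. Samples of 1 letter deviated together: differences of b minus a in ΔATG and WT correlated over 13799 genes by 0.586 on day 3, 0.642 on day 4 and 0.245 on day 5. The labels name no shared batch, so this pairing comes from the values. Alternatives were other scalings, filters and tools, a block for the letter, fits of fewer libraries, and leaving out each library.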

Additional observations from a re-analysis of the deposited data

Results flagged for a closer look

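The results below were picked out because the ΔATG effect differed between days, times or protocols by a test of the difference itself, edgeR's quasi-likelihood test. Each group of a day held 2 libraries, too few to look for a single library far from the others. The effect varied over days 3 to 5 for 134 genes. It differed from that of days 1 and 2 for 470 genes, from that of day 0 for 1910, from that of SMADi for 9976 and from that of Endo for 5830.

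Among named genes, CDKN1A was lower in BMP4 by a further -1.41 than in SMADi and -1.24 than in Endo. The effect on HAND1 was -0.62 relative to days 1 and 2 and 2.69 relative to Endo. The effect on GDF15 differed by -2.16 from day 0 and by -1.52 from Endo.

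Day-dependent effects on days 3 to 5 had adjusted p-values of 1.24e-07 for CST1, 2.82e-07 for CFLAR, 1.81e-05 for ANKRD1, 5.23e-05 for FGF17, 0.000228 for MEG3 and 0.000275 for OTX2. LHX1 had 0.00234, DLL1 0.00744, KRT8 0.00751, EOMES 0.0206 and FOXD3 0.0349. CST1, which encodes cystatin SN, had 3.91 and 4.73 CPM in ΔATG against 8.62 and 8.19 CPM in WT on day 3, and 17.9 and 16.6 CPM in ΔATG against 106 and 147 CPM in WT on day 5. ANKRD1, a YAP target, had 11.2 and 9.51 CPM in ΔATG against 14.7 and 13.2 CPM in WT on day 3, and 82.3 and 75.6 CPM in ΔATG against 205 and 251 CPM in WT on day 5.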

How the results depend on the processing

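Of 235 named genes 196 were called, 143 of these under every alternative run, and no called gene changed direction. Among genes not called the sign did change for some, such as CCNG1 (-0.12 to 0.07) and NANOG (-0.05 to 0.13). Counts of calls moved more. DESeq2 gave 728 genes whose effect differed from days 1 and 2 and 234 with a day-dependent effect. Without a filter on low counts, 1233 genes differed from day 0. Among genes with a mean of 10 CPM or more, 3125 were called over days 3 to 5 and 1898 on day 5, with 10 mesoderm genes lower, since fewer genes were tested. With a spread from the libraries compared alone, the averaged comparison gave 2332 calls, days 3, 4 and 5 gave 261, 165 and 874, and ΔATG against KO gave 817. That fit called 0 genes with a day-dependent effect, where 989 passed an unadjusted p of 0.05. The cause of these shifts was not tested.

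With a replicate block for the letter, day 3 gave 2957 calls, day 4 2474, the day-dependent effect 465, the difference from days 1 and 2 1113, that from day 0 3570 and ΔATG against KO 6012. In the fit of 96 libraries the block made TP73, USP7, ATOH8, TFAP2B, KRT7 and VRTN called as well as PERP, RRM2B, FGF4 and ID1, ended the call of DCN, and changed no other call of a named gene in the averaged comparison. The block in a fit of the compared libraries gave 4 genes for the day-dependent effect and 5442 for ΔATG against KO, and among named genes it gained 8 calls and ended 6, those of NKX2-5, PRRX1, CDX4, DLX3, DCN and COX4I2.

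A fit of the 36 day 0 and BMP4 libraries, chosen after the data were seen, gave 3107 calls on average, 515, 447 and 1503 on days 3, 4 and 5, 13 for the day-dependent effect, 82 against days 1 and 2, 418 against day 0 and 1307 for ΔATG against KO. Leaving out single libraries gave 4072 to 4895 calls on average, 685 to 1528 on day 3, 555 to 1790 on day 4, 1424 to 3001 on day 5 and 53 to 197 for the day-dependent effect. Day 3 gave 685 and 883 calls when library a or b of ΔATG was left out and 739 when WT library a was. Day 4 gave 844 when ΔATG library a was left out and 555 when WT library a was, and day 5 gave 1540 without ΔATG library b and 1424 without WT library b. The p53 targets called lower numbered 21 to 25 and the mesoderm genes 18 to 21. NKX2-5, PRRX1 and TBX20, with medians under 2 CPM in both lines, were lost in 1 or more of these refits.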

Other observations

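Next to CEBPZOS, CEBPZ and NDUFAF7, looked at after the values of CEBPZOS were seen, were higher in ΔATG. CEBPZ had medians of 274 CPM in ΔATG and 161 CPM in WT (0.77 ± 0.06), and NDUFAF7 59.4 CPM in ΔATG and 31.7 CPM in WT (0.90 ± 0.06). CEBPZ and CEBPZOS overlap on opposite strands, so their reads cannot be told apart if strand was not used in counting. MEG3, a maternally expressed imprinted RNA, spanned 0.578 to 8.05 CPM in ΔATG and 4.63 to 9.83 CPM in WT (-1.20 ± 0.17). Its changes of -2.76, -0.96 and 0.11 on days 3, 4 and 5 differed between days, and it was not lower on day 5. Another imprinted gene, SNRPN, spanned 611 to 639 CPM in ΔATG and 481 to 557 CPM in WT (0.25 ± 0.03).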
